A study of Mus musculus with 24 samples.

Results

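Angptl4 is measured here together with the other genes of its branch of lipid handling: the angiopoietin-like genes Angptl2 and Angptl6, the lipases Lpl and Lipg, and Gpihbp1. The 6 genes were chosen by name, from the platform's gene symbols. Of them, 5 were measured, among 19937 genes in all, each by 1 probe set. Angptl2 was not analysed here.

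Lipoprotein lipase (Lpl) is an enzyme secreted by the cells that make it. It hydrolyses the triglycerides of circulating lipoproteins, and it is held in capillaries by GPIHBP1, a protein of endothelial cells that binds the lipase and carries it to the vessel lumen. ANGPTL4 is a secreted inhibitor of lipoprotein lipase. Its gene is a well-known target of the PPAR family of nuclear receptors, which are activated by fatty acids and bind DNA with RXR partners. Without ligand, PPAR-beta is known to sit on some target genes with corepressors, which ligand displaces. Endothelial lipase (Lipg) is a related enzyme that mainly cleaves phospholipids of high-density lipoprotein. ANGPTL2 and ANGPTL6 belong to the same protein family as ANGPTL4 but are known as signalling proteins of inflammation, vessels and metabolism rather than as lipase inhibitors. In skin, ANGPTL4 is also known for roles in keratinocyte migration and wound closure.

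The cells were mouse primary keratinocytes of strain C57/BL6, grown for 2 days before infection. They came from Ppar-beta null mice, which lack PPAR-beta (gene Ppard), or from wild-type mice. Cells of each genotype received a retrovirus encoding Hras for 48 hours or were mock infected, and were then treated for 24 hours with 1 uM GW0742, a synthetic PPAR-beta agonist, or with its vehicle DMSO. The 8 groups were null Hras GW0742, null Hras DMSO, null mock GW0742, null mock DMSO, wild-type Hras GW0742, wild-type Hras DMSO, wild-type mock GW0742 and wild-type mock DMSO, each with 3 arrays of total RNA. The labels do not say that the replicates are separate cultures or animals. The p-values therefore reflect only how far these arrays differ from one another, and that spread may be technical.

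Values are log2 expression after RMA, a method that puts all arrays on nearly the same distribution. The array medians lay between 7.46 and 7.53, and precision is bounded by having 3 arrays in a group. Changes are log2 differences ± standard error from 1 limma model of all 24 arrays, with intervals at 95% and p-values adjusted over all 19937 genes, and a gene passed at an adjusted p under 0.05. The 3 null Hras GW0742 arrays differed more among themselves than those of the other groups, with a median SD over all genes of 0.122, against 0.0647 to 0.0798. The model gives a gene the same spread in all groups. Its standard errors and p-values can therefore be too small in comparisons that include this group. In null mock DMSO cells, Ppard was 0.57 ± 0.06 lower than in wild-type mock DMSO cells (log2 change -0.57, adjusted p = 1.53e-06), and in null Hras DMSO cells the change against wild-type was -0.28 ± 0.06. Its mean was still 10.62 in null mock DMSO cells, against 11.19 in wild-type mock DMSO cells. Neither the deleted part nor the part the probe set reads is given, so this signal does not check the genotype. Of 10 keratinocyte markers, 9 had a mean level above the 75th percentile of all genes, a rank that probe design also affects. All 5 measured adipocyte markers and 8 of 9 endothelial markers lay below the 50th percentile, as did 8 of 9 leukocyte markers. Of 7 melanocyte markers, 4 lay above the 75th percentile and 1 below the 50th, with a median percentile of 79.1. Of 8 fibroblast markers, 1 lay above the 75th and 3 below the 50th, with a median percentile of 55.4.

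Angptl4 had the widest range of the 5 genes across the groups. In null Hras GW0742 cells its log2 levels were 10.31, 9.89 and 9.75, and in null Hras DMSO cells 10.49, 10.32 and 10.26. In null mock GW0742 cells they were 9.35, 9.35 and 9.51, and in null mock DMSO cells 9.41, 9.23 and 9.48. Null cells therefore kept to a band between 9.23 and 10.49 whatever the ligand. In wild-type Hras GW0742 cells the levels were 12.02, 12.10 and 12.11, and in wild-type Hras DMSO cells 9.79, 9.88 and 9.55. In wild-type mock GW0742 cells they were 11.66, 11.62 and 11.67, and in wild-type mock DMSO cells 7.50, 7.52 and 7.44. The lowest wild-type group lay below every null array and the 2 ligand-treated wild-type groups lay above every null array.

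**Figure D1:**
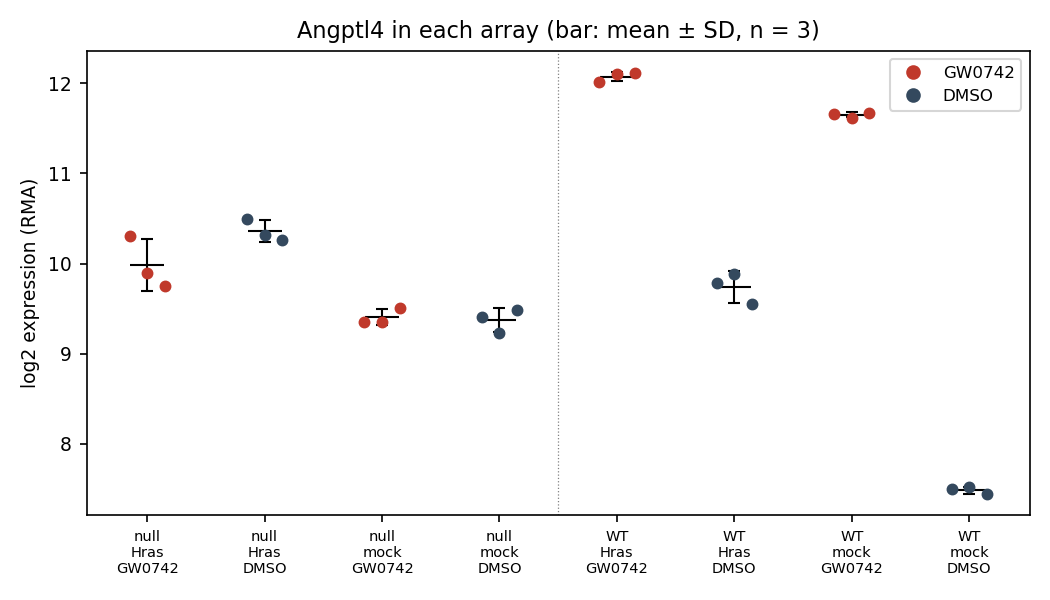
Log2 expression (RMA) of Angptl4 in each of the 24 arrays, by genotype, virus and ligand; dots are arrays, red for GW0742 and dark for DMSO, and the black marks give the mean and SD of 3 arrays. The null groups lie between 9.23 and 10.49, between the wild-type mock DMSO arrays (7.44 to 7.52) and the wild-type GW0742 arrays (11.62 to 12.11).

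Ordered by mean, wild-type Hras GW0742 (12.07) came first, followed by wild-type mock GW0742 (11.65). The arrays of these groups did not overlap with each other or with the group that followed. Null Hras DMSO (10.36), null Hras GW0742 (9.98) and wild-type Hras DMSO (9.74) came next, and each overlapped its neighbour. Null mock GW0742 (9.40) and null mock DMSO (9.37) overlapped as well, and wild-type mock DMSO (7.48) stood alone at the bottom. That lowest mean lay within the range of the array medians (7.46 to 7.53). Whether a detection floor limits it, and so the changes measured from it, was not tested. The means spanned 4.59 on the log2 scale, a 24.1-fold range.

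Without virus or ligand, Angptl4 was higher in null cells than in wild-type cells. The null mock DMSO mean was 9.37 and the wild-type mock DMSO mean 7.48, a log2 change of 1.89 ± 0.11, or 3.70-fold (adjusted p = 1.38e-10). Only 1 of the 19937 genes had a more positive change in this comparison. Of the 5 genes measured, 2 passed here, where 10.4% of all genes did, and the other was Lpl, which was lower. Fibroblast markers were lower in null cells in the same contrast (7 of 8), as were melanocyte markers (4 of 7). Keratinocyte markers had 2 of 10 higher and 0 lower, and leukocyte markers had 2 of 9 higher and 0 lower. Of the endothelial markers 1 of 9 was lower and 0 higher, and 0 of 5 adipocyte markers passed in limma. The mean of the 7 melanocyte markers was 10.05 to 10.11 in null mock DMSO arrays and 10.29 to 10.39 in wild-type mock DMSO arrays. In bulk RNA, fewer cells of a type and less RNA per cell cannot be told apart, and the part of these markers in the Angptl4 difference was not tested. The same genotype contrast after Hras was smaller for Angptl4, with means of 10.36 in null Hras DMSO cells and 9.74 in wild-type Hras DMSO cells (log2 change 0.62 ± 0.11, adjusted p = 0.000233). In this comparison 3 of 5 genes passed, all higher in null cells, where 19.4% of all genes passed and 10.1% passed upwards.

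With ligand present the genotype contrast had the opposite sign. Null mock GW0742 cells had less Angptl4 than wild-type mock GW0742 cells (log2 change -2.25 ± 0.11, adjusted p = 4.21e-12). Null Hras GW0742 cells likewise had less than wild-type Hras GW0742 cells (-2.09 ± 0.11, adjusted p = 9.67e-12). In mock GW0742 cells 3 of 5 genes passed, all lower in null cells, where 22% of all genes passed and 10.9% passed downwards. In Hras GW0742 cells 3 of 5 passed, 1 higher and 2 lower, where 21.1% of all genes did.

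GW0742 raised Angptl4 in wild-type cells and did not raise it in null cells past the threshold. In null mock cells the difference was 0.03 ± 0.11, with an interval from -0.19 to 0.25 (adjusted p = 0.992). In null Hras cells it was -0.37 ± 0.11, just past the threshold (adjusted p = 0.0471). That last call was lost when only the arrays of the compared groups were fitted (adjusted p = 0.479) and in 5 of 6 refits that each left out 1 array, all but the one without null Hras GW0742 replicate 1. Without null Hras GW0742 replicate 3 the change was -0.26 (adjusted p = 0.230). In the same contrast 5 of 7 melanocyte markers were higher, where 5.02% of all genes passed in either direction. Their means were 9.56 to 9.81 in null Hras GW0742 arrays and 9.28 to 9.37 in null Hras DMSO arrays. These marker calls were also lost when only the arrays of the compared groups were fitted, as were all 1001 calls of this contrast. The part of these markers was not tested. In wild-type mock cells the Angptl4 change was 4.17 ± 0.11, or 18.0-fold (adjusted p = 1.18e-16). In wild-type Hras cells it was 2.34 ± 0.11, or 5.05-fold (adjusted p = 2.70e-12).

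The ligand effects differed between genotypes. For Angptl4 the GW0742 effect in null minus that in wild-type cells was -4.14 ± 0.15 without virus (adjusted p = 1.42e-13) and -2.71 ± 0.15 after Hras (adjusted p = 2.90e-10). In wild-type cells the GW0742 effect was smaller after Hras than in mock cells, with a difference of -1.83 ± 0.15 (adjusted p = 5.91e-07). The treated groups themselves were closer than the vehicle groups: wild-type Hras GW0742 exceeded wild-type mock GW0742 by 0.42 ± 0.11, whereas wild-type Hras DMSO exceeded wild-type mock DMSO by 2.25 ± 0.11.

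Hras raised Angptl4 under all 4 combinations of genotype and ligand. In DMSO the change was 0.98 ± 0.11 in null cells (adjusted p = 1.08e-07) and 2.25 ± 0.11 in wild-type cells (adjusted p = 2.30e-13), a null minus wild-type difference of -1.27 ± 0.15 (adjusted p = 4.99e-06). In GW0742 it was 0.58 ± 0.11 in null cells (adjusted p = 0.000109) and 0.42 ± 0.11 in wild-type cells (adjusted p = 0.00306). The wild-type mock DMSO arrays, where Angptl4 was lowest, enter the basal genotype contrast, the ligand effect in wild-type mock cells, the Hras effect in wild-type DMSO cells and each of the differences built on these, so these values are not independent of each other.

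Of the 5 genes, Angptl4 passed in 3 of the 4 ligand comparisons and Lipg in 2, and the others in none. In null mock cells 0 of 5 passed in limma, as for 0% of all genes, and 0 of 5 had an unadjusted p under 0.05. In null Hras cells 2 of 5 passed, both downwards, where 5.02% of all genes passed and 1.51% passed downwards. Both calls were lost with only the compared arrays, as were those of all 1001 genes that passed, and leaving out 1 array gave 393 to 2539 genes. In wild-type mock cells 2 of 5 genes passed, both upwards, where 2.86% of all genes passed and 1.25% passed upwards. In wild-type Hras cells 1 of 5 passed, upwards, where 6.11% of all genes passed and 4.46% passed upwards.

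**Figure D2:**
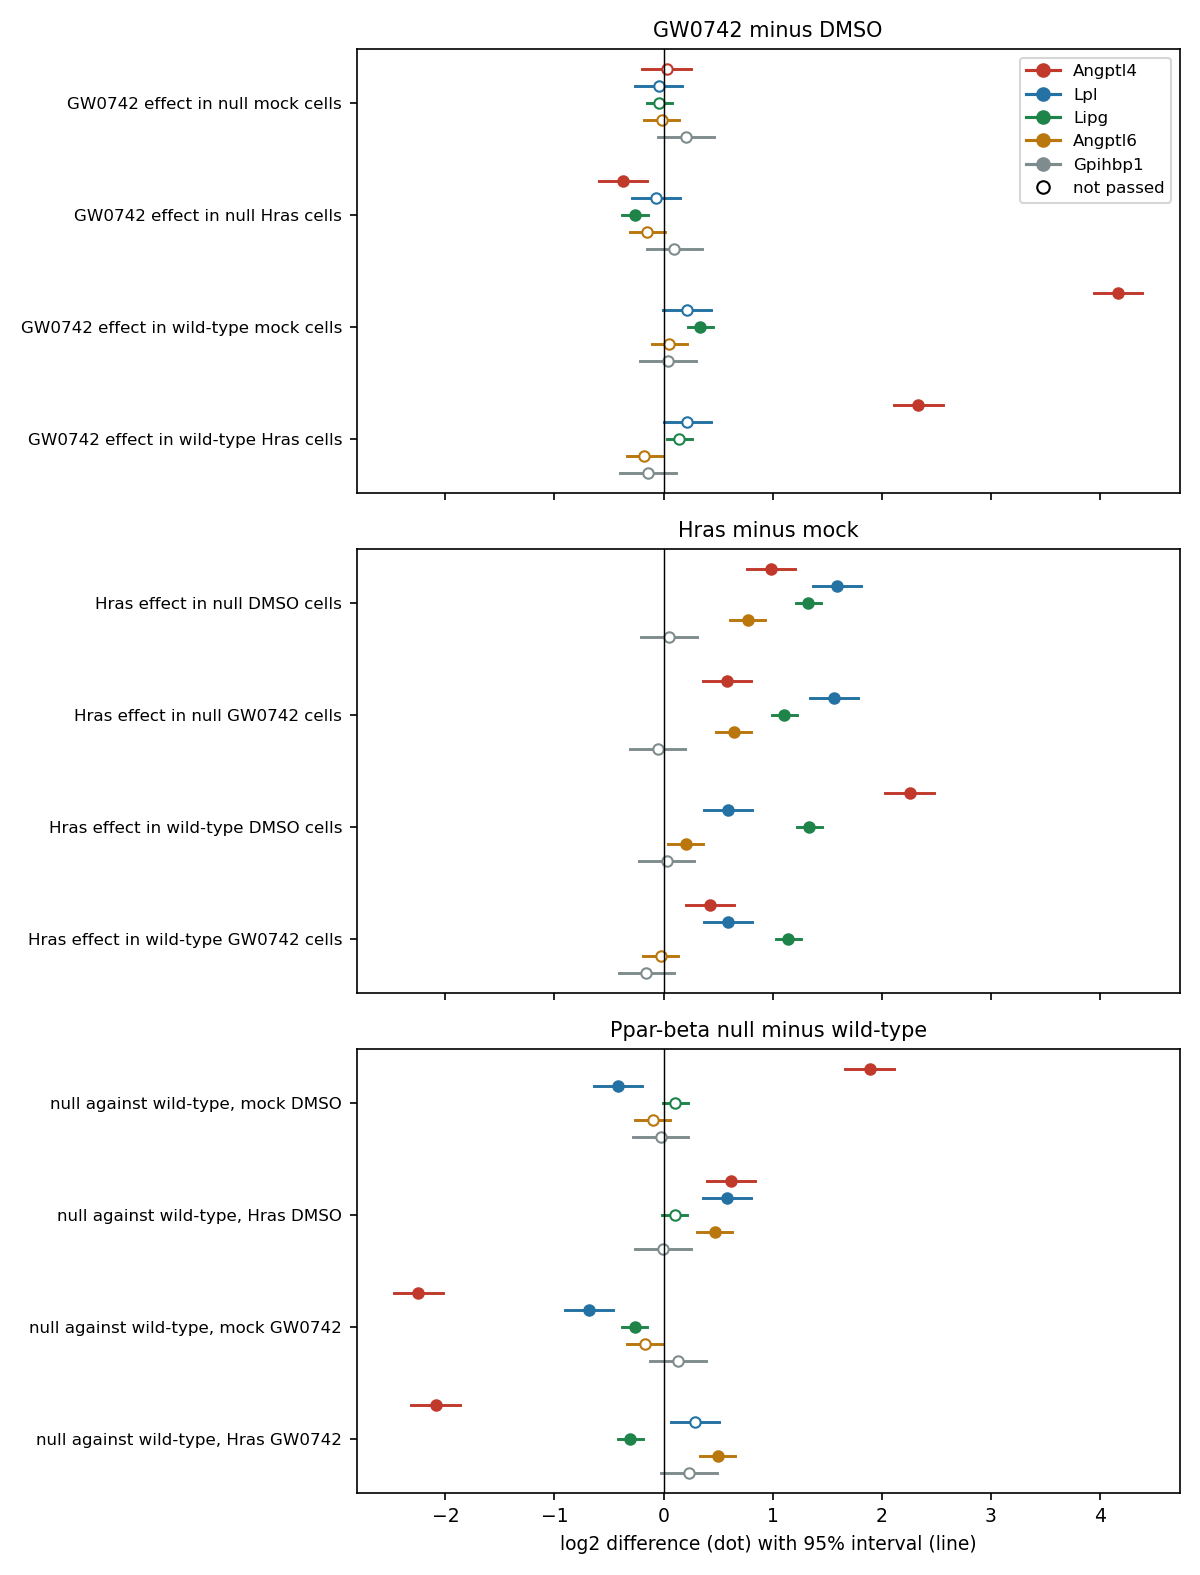
Log2 differences of the 5 genes in the 12 comparisons between pairs of groups; dots are estimates from the model of all 24 arrays, lines are 95% intervals, and open dots did not pass at an adjusted p under 0.05. Angptl4 has the widest swing, from -2.25 to 4.17, while Gpihbp1 has open dots throughout.

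Angptl6 encodes another secreted member of the angiopoietin-like family. It was highest in Hras-infected null cells, at 8.49, 8.71 and 8.65 with GW0742 and 8.75, 8.75 and 8.80 with DMSO. In null mock cells it was 7.99, 8.07 and 7.86 with GW0742 and 8.06, 7.95 and 7.97 with DMSO. In wild-type cells every array of the 4 groups lay between 7.99 and 8.44, below every Hras-infected null array.

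Hras raised Angptl6 by 0.77 ± 0.08 in null DMSO cells (adjusted p = 2.72e-08) and by 0.64 ± 0.08 in null GW0742 cells (adjusted p = 4.13e-07). In wild-type DMSO cells the change was 0.20 ± 0.08 (adjusted p = 0.0407). That call was lost with only the compared arrays (adjusted p = 0.0864), and in 4 of 6 refits without 1 array, the ones without wild-type mock DMSO replicate 1 or 2 or wild-type Hras DMSO replicate 2 or 3. In wild-type GW0742 cells the change was -0.03 ± 0.08, with an interval from -0.19 to 0.13. The null minus wild-type difference of the Hras effects in DMSO was 0.57 ± 0.11 (adjusted p = 0.000753). In that difference 7 of 8 fibroblast markers passed as well, all positive, with a median of 0.95, where 16.8% of all genes passed. So did 3 of 7 melanocyte markers, also positive. With Hras in null DMSO cells 5 of the 8 fibroblast markers fell and 1 rose (median -0.46). In wild-type DMSO cells all 8 fell (median -1.51), and all 7 melanocyte markers fell in both genotypes. Of all genes 40.7% passed with Hras in null DMSO cells and 37.4% in wild-type DMSO cells. The part of these markers in the Angptl6 values was not tested. After Hras, null cells had more Angptl6 than wild-type cells, by 0.47 ± 0.08 in DMSO and 0.50 ± 0.08 in GW0742, while in mock DMSO cells the difference was -0.10, with an interval from -0.26 to 0.06. No ligand effect on Angptl6 passed: the 4 changes lay between -0.18 and 0.05.

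Lpl, the lipase that ANGPTL4 inhibits, was also highest in Hras-infected null cells. Its levels were 10.07, 10.01 and 10.21 in null Hras GW0742 cells and 9.90, 10.28 and 10.32 in null Hras DMSO cells. They were 8.53, 8.55 and 8.52 in null mock GW0742 cells and 8.76, 8.45 and 8.54 in null mock DMSO cells. The null arrays thus formed a high and a low cluster by virus, with no overlap. In wild-type cells the levels were 9.68, 10.02 and 9.72 with Hras and GW0742, and 9.48, 9.54 and 9.75 with Hras and DMSO. Wild-type mock cells had 9.29, 9.22 and 9.15 with GW0742 and 9.06, 8.92 and 9.03 with DMSO. The wild-type arrays also split by virus, over a narrower range.

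Hras raised Lpl by 1.59 ± 0.11 in null DMSO cells (adjusted p = 4.92e-11) and by 0.59 ± 0.11 in wild-type DMSO cells (adjusted p = 9.58e-05). The null minus wild-type difference was 1.00 ± 0.15 (adjusted p = 6.27e-05), beside the median of 0.95 for the fibroblast markers in the same difference. For Lpl it lay between 2 rises, whereas the marker medians with Hras were falls, -0.46 in null and -1.51 in wild-type DMSO cells. In GW0742 the Hras changes were 1.56 ± 0.11 in null cells and 0.59 ± 0.11 in wild-type cells. The genotype contrast of Lpl changed sign with the virus: -0.42 ± 0.11 in mock DMSO cells (adjusted p = 0.0108) and 0.58 ± 0.11 in Hras DMSO cells (adjusted p = 0.00039). The mock DMSO call was lost without wild-type mock DMSO replicate 1 (adjusted p = 0.0529) or null mock DMSO replicate 2 (adjusted p = 0.0697). In mock GW0742 cells Lpl was lower in null cells by a log2 change of -0.69 ± 0.11 (adjusted p = 5.41e-05). In Hras GW0742 cells the contrast of 0.29 ± 0.11 missed the threshold (adjusted p = 0.0554), and it passed without wild-type Hras GW0742 replicate 2 (adjusted p = 0.0137). With GW0742, Lpl differed from DMSO by -0.05 ± 0.11 in null mock cells and by -0.07 ± 0.11 in null Hras cells. In wild-type cells the differences were 0.22 ± 0.11 without virus (adjusted p = 0.384) and 0.22 ± 0.11 after Hras (adjusted p = 0.304), and none of the 4 passed.

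In the mock DMSO contrast, where Lpl was lower in null cells, most fibroblast markers were lower as well. Of 8 measured markers (Col1a1, Col1a2, Col3a1, Pdgfra, Pdgfrb, Dcn, Lum and Thy1), 7 were lower in null mock DMSO than in wild-type mock DMSO cells, with a median change of -0.65, against 0.03 for all genes. In this contrast 10.4% of all genes passed. The mean of the 8 was 8.37 to 8.42 in null mock DMSO arrays and 9.03 to 9.06 in wild-type mock DMSO arrays. In Hras DMSO cells, 5 of 8 were higher in null cells, with ranges of 7.88 to 8.09 in null and 7.68 to 7.77 in wild-type arrays. There 19.4% of all genes passed and 10.1% passed upwards. With Hras, all 8 fell in wild-type DMSO cells (median -1.51) while 1 rose and 5 fell in null DMSO cells, and Lpl rose in both. Of all genes 37.4% passed with Hras in wild-type DMSO cells and 40.7% in null DMSO cells. Leukocyte markers, 9 in all, had 2 higher and 0 lower in null mock DMSO cells. The mean of the 9 was 7.16 ± 0.04 there and 6.93 ± 0.09 in wild-type mock DMSO cells (SD, n = 3 each). In null against wild-type Hras DMSO cells, 3 of the 9 were higher and 0 lower. The part of these markers in the Lpl values was not tested.

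Lipg, endothelial lipase, followed the virus. Its levels were 11.08, 10.93 and 10.86 in null Hras GW0742 cells, 11.21, 11.23 and 11.20 in null Hras DMSO cells, 11.31, 11.24 and 11.23 in wild-type Hras GW0742 cells, and 11.07, 11.16 and 11.11 in wild-type Hras DMSO cells. In the mock groups they were 9.77, 9.89 and 9.89 (null GW0742), 9.94, 9.81 and 9.91 (null DMSO), 10.11, 10.12 and 10.12 (wild-type GW0742), and 9.83, 9.73 and 9.79 (wild-type DMSO). Every Hras array lay above every mock array, the lowest Hras array at 10.86 and the highest of the mock arrays at 10.12.

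Hras raised Lipg by 1.33 ± 0.06 in null DMSO cells (adjusted p = 2.55e-14) and by 1.33 ± 0.06 in wild-type DMSO cells (adjusted p = 2.84e-14), a null minus wild-type difference of -0.01, with an interval from -0.17 to 0.16. In GW0742 the changes were 1.11 ± 0.06 in null cells and 1.14 ± 0.06 in wild-type cells. With GW0742, Lipg fell in null Hras cells, with a change of -0.26 ± 0.06 (adjusted p = 0.00653), a call lost with only the compared arrays (adjusted p = 0.316). In null mock cells the difference was -0.04 ± 0.06 (adjusted p = 0.976). GW0742 raised Lipg by 0.34 ± 0.06 in wild-type mock cells (adjusted p = 0.000923), and in wild-type Hras cells the difference was 0.14 ± 0.06 (adjusted p = 0.158). The null minus wild-type difference of the ligand effects was -0.37 ± 0.08 in mock cells (adjusted p = 0.0189), a call lost in 5 of 12 refits without 1 array, those without wild-type mock DMSO replicate 2, wild-type mock GW0742 replicate 1 or 3, null mock DMSO replicate 1 or null mock GW0742 replicate 1. In Hras cells it was -0.41 ± 0.08 (adjusted p = 0.0066, and 0.103 with only the compared arrays). In DMSO the genotypes differed by 0.11 in mock cells (interval -0.01 to 0.22) and by 0.10 in Hras cells (interval -0.01 to 0.22). In GW0742 Lipg was lower in null cells, with changes of -0.27 ± 0.06 in mock and -0.30 ± 0.06 in Hras cells, the second of which missed the threshold with only the compared arrays (adjusted p = 0.0575).

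Gpihbp1, the endothelial anchor of lipoprotein lipase, passed in 0 of the 16 comparisons in limma, and its unadjusted p was under 0.05 in 0 of them. Its 24 arrays lay between 7.18 and 7.92 and its 8 group means within 0.29. Both extremes of its arrays were null Hras GW0742 arrays. Its mean level lay at percentile 43.4 of all genes. The group means, 7.33 to 7.62, lay around the array medians of 7.46 to 7.53. Whether a detection floor hides changes in Gpihbp1 was not tested. In null against wild-type Hras GW0742 cells the difference was 0.24 (interval -0.02 to 0.49), and it passed at 0.43 without null Hras GW0742 replicate 1 (adjusted p = 0.00299). Of the endothelial markers, Pecam1, Cdh5, Kdr, Emcn, Tek, Tie1, Esam and Plvap lay under the 50th percentile of all genes and Egfl7 above it.

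**Figure D3:**
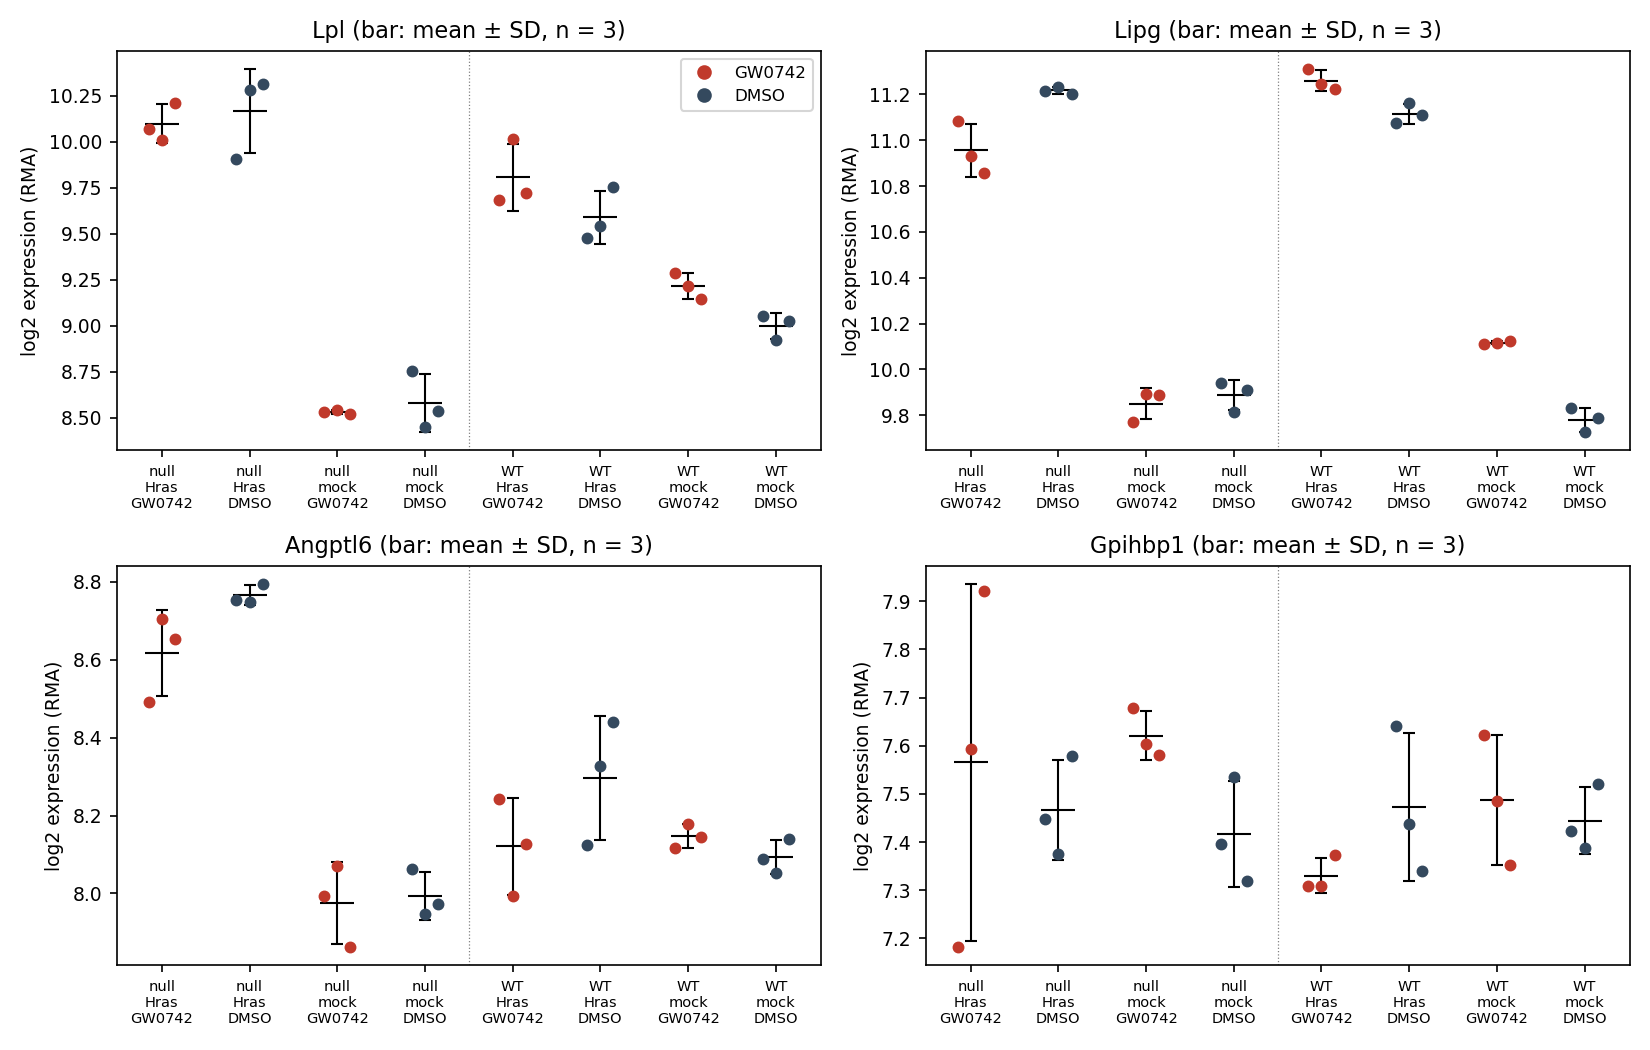
Log2 expression (RMA) of Lpl, Lipg, Angptl6 and Gpihbp1 in each of the 24 arrays; dots are arrays, red for GW0742 and dark for DMSO, the black marks give the mean and SD of 3 arrays, and each panel has its own axis. Lpl and Lipg split by virus, Angptl6 is highest in Hras-infected null cells (8.49 to 8.80), and the Gpihbp1 means stay within 0.29.

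Hras changed most of these genes. In DMSO, 4 of 5 passed in null cells, all upwards, where 40.7% of all genes passed and 20.2% passed upwards, and 4 of 5 passed in wild-type cells, all upwards, where 37.4% passed and 18.4% passed upwards. In GW0742, 4 of 5 passed in null cells, all upwards, where 41.8% passed and 21% passed upwards, and 3 of 5 passed in wild-type cells, all upwards, where 35.2% passed and 17.7% passed upwards. These shares of all genes are high as well, so the counts are read only as the calls of the named genes. Keratinocyte markers moved in the same contrasts. In null DMSO cells 1 of 10 rose and 8 fell (median change -0.39), and the mean of the 10 was 11.59 to 11.64 in null Hras DMSO arrays, against 12.90 to 12.93 in null mock DMSO arrays. In wild-type DMSO cells 8 of 10 fell (median -0.37), with the mean of the 10 at 11.43 to 11.54 in wild-type Hras DMSO arrays and 12.81 to 12.84 in wild-type mock DMSO arrays. The differentiation keratins Krt1 and Krt10 had the largest falls. Krt1 changed by -5.13 ± 0.13 in null and -5.80 ± 0.13 in wild-type cells, and Krt10 by -4.85 ± 0.09 in each. The basal keratin Krt5 changed by -0.25 ± 0.04 in null and -0.13 ± 0.04 in wild-type cells. All 7 melanocyte markers also fell with Hras in both genotypes in DMSO. Of 9 endothelial markers, 4 rose and 1 fell in null DMSO cells, and 3 rose and 1 fell in wild-type DMSO cells. The part of these markers in the Hras values of the 5 genes was not tested.

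Tests of differences between effects gave calls for 4 of the 5 genes. For the ligand by genotype difference, 2 of 5 passed in mock cells, both negative, where 0.848% of all genes passed and 0.562% passed negatively, and 2 of 5 passed in Hras cells, both negative, where 1.73% passed and 1.21% passed negatively. For the Hras by genotype difference in DMSO, 3 of 5 passed, where 16.8% of all genes did. For the ligand by Hras difference in wild-type cells, 1 of 5 passed, negatively, where 2.47% of all genes passed and 0.421% passed negatively.

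**Figure D4:**
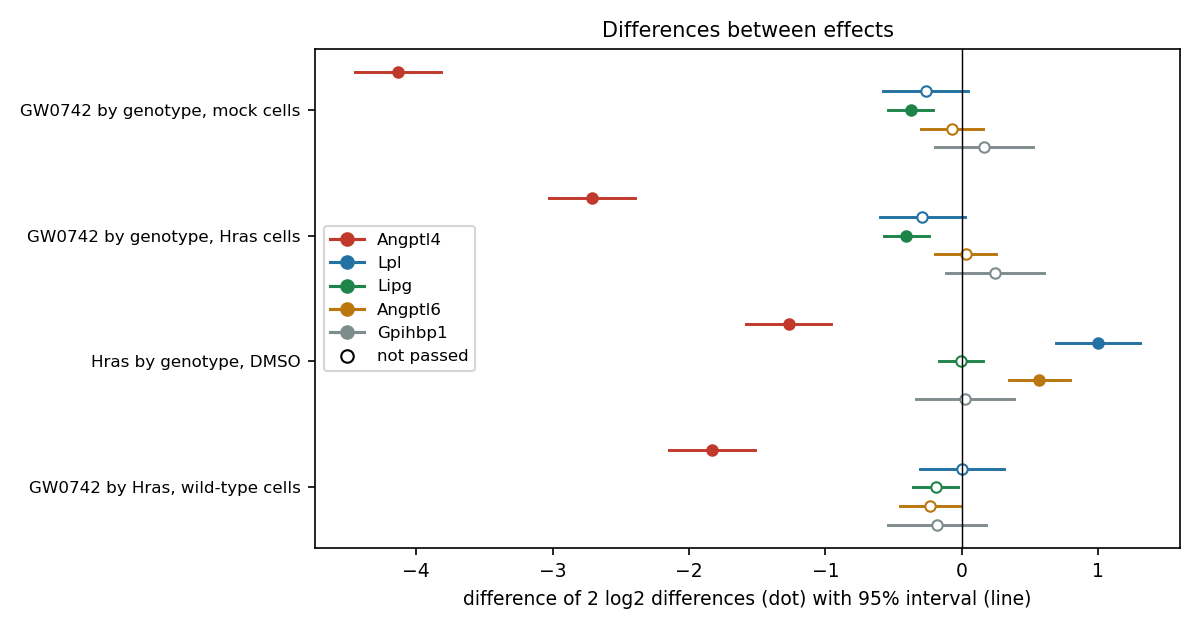
Differences between effects on the log2 scale for the 5 genes, as null minus wild-type for the first 3 and Hras minus mock for the last; dots are estimates, lines 95% intervals, and open dots did not pass at an adjusted p under 0.05. Angptl4 is negative in all 4, while Lpl (1.00) and Angptl6 (0.57) are positive for the Hras by genotype difference.

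Other angiopoietin-related genes and receptors were listed as 11, all measured (Angptl1, Angptl7, Angptl8, Angpt1, Angpt2, Angpt4, Tek, Tie1, Pirb, Itga5 and Itgb1). In each of the 4 ligand comparisons 0 of 11 passed in limma, where 0% to 6.11% of all genes passed. An unadjusted p under 0.05 was reached by 1 or 2 of 11 in each. With Hras in GW0742 the integrin subunit Itga5 fell in null cells (-0.34 ± 0.07, adjusted p = 0.000351) and rose in wild-type cells (0.48 ± 0.07). In DMSO it rose by 0.38 ± 0.07 in wild-type cells and did not pass in null cells, and the null minus wild-type difference was -0.31 ± 0.10 (adjusted p = 0.0327). Tek, the angiopoietin receptor and also an endothelial marker, had a mean level at percentile 22.1 of all genes. It fell with Hras, with changes of -0.59 ± 0.08 in null and -0.40 ± 0.08 in wild-type DMSO cells. In mock DMSO cells Itgb1, another integrin subunit, was higher in null cells by 0.23 ± 0.05. It was the 1 of 11 to pass, where 10.4% of all genes passed.

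Genes that mature, cleave or assist lipases, with other extracellular lipases, were listed as 17, of which 14 were measured. In the ligand comparisons 1 of 14 passed in wild-type Hras cells, where 6.11% of all genes passed. This was the phospholipase gene Liph, which rose by 0.38 ± 0.09. In the other 3 comparisons 0 of 14 passed in limma, where 0% to 5.02% of all genes passed. An unadjusted p under 0.05 was reached by 0 to 3 of 14 there. With Hras in DMSO, 3 rose and 3 fell of 14 in null cells, where 40.7% of all genes passed, and 6 rose and 3 fell in wild-type cells, where 37.4% passed. The largest rise was that of Pcsk6, a proprotein convertase, 1.01 ± 0.06 in null and 1.69 ± 0.06 in wild-type cells. Apoc1, an apolipoprotein that inhibits lipoprotein lipase, had the largest fall in wild-type cells, with changes of -1.04 ± 0.09 in null and -2.10 ± 0.09 in wild-type cells. Sel1l, a component of the endoplasmic reticulum needed for the maturation of lipoprotein lipase, rose by 0.82 ± 0.07 in null and 0.18 ± 0.07 in wild-type cells, a difference of 0.65 ± 0.09 (adjusted p = 4.9e-05). Hspg2, which encodes the heparan sulphate proteoglycan perlecan, fell, with changes of -1.09 ± 0.08 in null and -0.22 ± 0.08 in wild-type cells. In mock DMSO cells 1 of 14 was higher in null cells (Hspg2, 0.26 ± 0.08), where 10.4% of all genes passed. Lower there were 2 of 14, with log2 changes of -1.68 ± 0.09 for Apoc1 and -0.43 ± 0.08 for Apoe.

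Receptors and carriers that take up lipoproteins and fatty acids were listed as 9, of which 8 were measured. With Hras in DMSO, 5 rose and 2 fell of 8 in null cells, where 40.7% of all genes passed, and 5 rose and 1 fell in wild-type cells, where 37.4% passed. Lrp8, a receptor of apolipoprotein E, rose 2.83-fold in null and 2.38-fold in wild-type cells, and the fatty acid carrier Cd36 fell, with changes of -0.86 ± 0.13 in null and -0.67 ± 0.13 in wild-type cells. With GW0742 in null Hras cells, the fatty acid transporter Slc27a4 was higher by 0.42 ± 0.06 and Lrp8 was lower, with a change of -0.26 ± 0.06 (adjusted p = 0.0188), and both calls were lost with only the compared arrays. Of all genes 5.02% passed in that comparison. In wild-type Hras cells GW0742 raised 2 of 8, where 6.11% of all genes passed, among them Slc27a4 by 0.63 ± 0.06. In wild-type mock cells it raised 1 of 8, Lrp8, by 0.30 ± 0.06, where 2.86% of all genes passed. In mock DMSO cells only Vldlr, the very low density lipoprotein receptor, passed between genotypes, where 10.4% of all genes passed. It was lower in null cells (log2 change -0.27 ± 0.07).

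The receptors that bind PPAR response elements were 6, all measured. In mock DMSO cells Ppard was lower in null cells and Pparg, the gene of PPAR-gamma, was higher by 0.31 ± 0.07 (adjusted p = 0.00679). The other 4 of 6 did not pass, where 10.4% of all genes passed. With Hras in DMSO, Rxra fell, with changes of -1.01 ± 0.05 in null and -0.70 ± 0.05 in wild-type cells, and the Ppard signal rose by 0.75 ± 0.06 in null and 0.46 ± 0.06 in wild-type cells. In the 4 ligand comparisons 0 of 6 passed in limma, where 0% to 6.11% of all genes passed. An unadjusted p under 0.05 was reached by 0 to 2 of 6.

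The genes most like Angptl4 were ranked by Pearson's r over the 24 arrays, among 1915 named genes whose group means spanned at least 1 on the log2 scale. They were Aldh9a1 (r = 0.913), Plin2 (0.883), Acsbg1 (0.873), Abca1 (0.841), Erc2 (0.822), Tmem125 (0.815), Adh6b (0.804), Vwa8 (0.800), Smox (0.796) and Eci2 (0.793), and 9 of these 10 were also in the top 10 by the 8 group means. Arrays of the same groups share their conditions, so r is a description. Plin2 coats lipid droplets, Acsbg1 activates fatty acids, Abca1 exports cholesterol and Eci2 takes part in fatty acid oxidation. The ranking used the same 24 arrays, in which the wild-type GW0742 groups set much of the range of Angptl4, so the changes of these genes describe how they were chosen and are no separate test. With GW0742 their log2 differences lay between -0.19 and -0.01 in null mock cells and between 0.57 and 1.66 in wild-type mock cells.

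**Figure D5:**
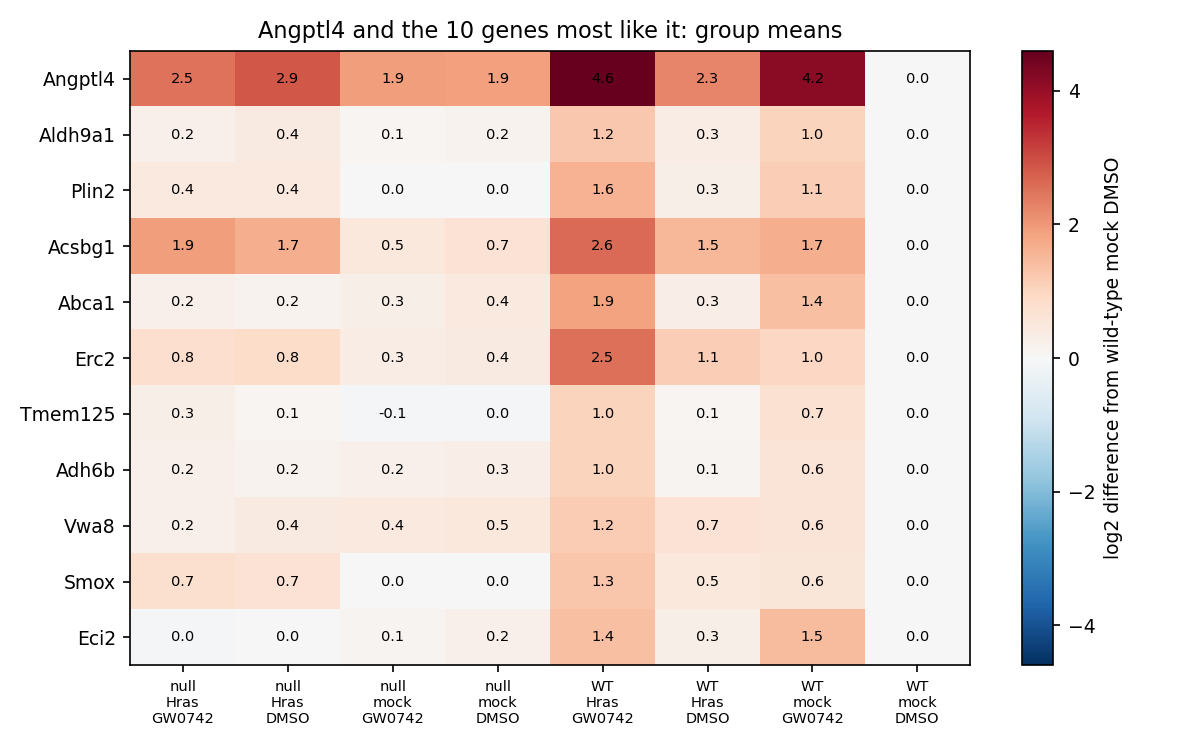
Group means of Angptl4 and of the 10 genes most like it by Pearson's r, as log2 differences from the wild-type mock DMSO mean (colour and number), one row per gene and one column per group. The wild-type GW0742 columns are raised in every row, whereas in null mock DMSO cells Angptl4 stands at 1.9 and the other rows between -0.05 and 0.67.

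In null against wild-type mock DMSO cells, the contrast in which Angptl4 differed by 1.89, 4 of the 10 were higher and 6 did not pass, where 10.4% of all genes passed, and these arrays too were among those that ranked the genes. Acsbg1 was higher by 0.67 ± 0.06, Vwa8 by 0.47 ± 0.08, Abca1 by 0.44 ± 0.07 and Erc2 by 0.40 ± 0.07. Plin2 differed by 0.01 ± 0.05 and Aldh9a1 by 0.15 ± 0.05 (adjusted p = 0.0891). A list of 12 known PPAR-beta responsive genes, 11 of them measured, was drawn up with their ligand response in these cells known. In the same contrast, 2 of those 11 were higher, Cpt1a by 0.60 ± 0.07 and Slc25a20 by 0.48 ± 0.06, and the median of the list was 0.07. Pdk4, which rose with GW0742 in wild-type mock cells by 4.14 ± 0.08, differed by 0.07 ± 0.08 between null and wild-type mock DMSO cells. Its arrays were at 6.88, 6.82 and 6.90 in null mock DMSO cells and at 6.74, 6.78 and 6.87 in wild-type mock DMSO cells, where they overlapped. With Hras in DMSO, Pdk4 fell in null cells (-0.37 ± 0.08) and had a difference of -0.16 ± 0.08 in wild-type cells, which did not pass.

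The genes most like Lpl were Taf4b (r = 0.983), Mpp6, Stc2, Eif4ebp1 and Rpia, and those most like Lipg were Slc25a43 (r = 0.988), Slc25a24, Il1a, Lrp8 and Cd80. These patterns were common: 176 genes had r over 0.9 with Lpl and 409 with Lipg, against 1 with Angptl4.

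PPAR with RXR is known to bind a direct repeat of the core AGGTCA with a spacer of 1 base. The 250 bases before the start of each gene were searched on both strands for the repeat AGGTCANAGGTCA and for the core AGGTCA, which also counts any core inside a repeat. The repeat was found in 11 of 32851 promoters (0.0335%) of RefSeq on GRCm38.p6 and the core in 4607 (14%). Of the 6 genes, Angptl2 and Angptl6 matched the table, and neither window held the core. Of the genes most like Angptl4, 9 of 10 matched, 0 held the repeat and 2 held the core, Plin2 and Erc2. Aldh9a1, the most similar gene, held none, nor did the other 6 that matched. The window of Plin2 (chr4:86670060-86670309, minus strand) is shown as one of the 2 with a core, and that of Angptl6 (chr9:20879711-20879960, minus strand) as the measured family member in the table, and nothing on the ligand response is drawn from the pair. Each is written toward its gene, and the capitals in Plin2 mark the core, here on the opposite strand as TGACCT, beginning 218 bases before the start.
Plin2: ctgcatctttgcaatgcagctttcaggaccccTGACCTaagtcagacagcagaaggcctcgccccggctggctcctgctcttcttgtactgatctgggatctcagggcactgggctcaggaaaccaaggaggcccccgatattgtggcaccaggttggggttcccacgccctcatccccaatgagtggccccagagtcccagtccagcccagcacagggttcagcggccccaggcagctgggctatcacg
Angptl6: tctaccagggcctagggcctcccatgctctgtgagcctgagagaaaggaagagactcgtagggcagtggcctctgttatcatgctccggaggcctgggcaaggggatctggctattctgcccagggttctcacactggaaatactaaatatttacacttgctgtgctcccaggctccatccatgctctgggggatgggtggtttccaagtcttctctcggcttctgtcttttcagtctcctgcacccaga

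A match of letters is not a bound site, and the windows cover only the sequence nearest the start.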

How the data were processed

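Affymetrix Mouse Gene ST arrays measured total RNA of 24 mouse keratinocyte samples. The authors deposited log2 expression values made with RMA, per the submitters' processing notes (software version not stated there). The values ran between 2.27 and 14.8, with 0 missing, and were used as deposited. RMA cannot show a shift common to most genes.

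The table has 34760 probe sets. The platform annotation gives 1 symbol for 21640 of them, several for 1321 and none for 11799. Only the 21640 were used. For the 954 genes with more than 1 probe set the brightest on average was kept, which gave 19937 genes. Each of the 5 genes reported on had 1.

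A limma model (version 3.58.1, R 4.3.3) had 1 mean for each of the 8 groups, default moderation and no replicate block, with 16 residual degrees of freedom. Its 16 comparisons were 12 pairs of groups and 4 differences between effects. P-values are two-sided and Benjamini-Hochberg adjusted across all 19937 genes within a comparison, at a threshold of 0.05.

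In a test on simulated data (wild-type mock GW0742 against DMSO, 19937 genes), 92 of 100 genes at a 1.5-fold change and 100 of 100 at a 2-fold change were recovered, and 7 of 199 calls were false. The simulated noise had the same spread in every group. The test therefore does not cover comparisons with the null Hras GW0742 arrays, whose spread was wider. Alternatives tried were centring each array, leaving out the 40% dimmest genes, trend and robust moderation, fitting only the compared arrays, leaving out the null Hras GW0742 group, the replicate block and leaving out each array.

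Genes named were the 6 chosen genes, the 10 most like Angptl4 and 5 most like each of Lpl and Lipg, Ppard, and up to 4 passing members of each list and comparison with the largest changes. Pdk4 falls outside this rule in part and was chosen after its values were seen. The members and lists were chosen with earlier results of these data known. Figures used matplotlib 3.10.9.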

Additional observations from a re-analysis of the deposited data

Results flagged for a closer look

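These 8 results were marked because the effect of a treatment differed between 2 groups by a test of the difference itself in limma. For Angptl4 the null minus wild-type difference of the GW0742 effects was -4.14 ± 0.15 in mock cells and -2.71 ± 0.15 in Hras cells, and that of the Hras effects in DMSO was -1.27 ± 0.15. The Hras minus mock difference of the GW0742 effects on Angptl4 in wild-type cells was -1.83 ± 0.15. For Lipg the null minus wild-type difference of the GW0742 effects was -0.37 ± 0.08 in mock cells and -0.41 ± 0.08 in Hras cells. For Lpl that of the Hras effects in DMSO was 1.00 ± 0.15, and for Angptl6 it was 0.57 ± 0.11. Several share the wild-type mock DMSO arrays.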

How the results depend on the processing

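Of 1060 refits of the 5 genes, 996 kept direction and call, 22 lost a call, 4 gained one and 38 changed sign, 0 of these with a call. With only the compared arrays, the calls of Angptl4 (-0.37) and Lipg (-0.26) for GW0742 in null Hras cells were lost. So was that of Angptl6 for Hras in wild-type DMSO cells (0.20). Lipg also lost its calls for null against wild-type Hras GW0742 (-0.30) and for the GW0742 by genotype difference in Hras cells (-0.41). The Lpl contrast of null against wild-type Hras GW0742 cells (0.29) passed without the 40% dimmest genes (adjusted p = 0.0321) and with trend and robust moderation (adjusted p = 0.0355). Centring turned Gpihbp1 in null against wild-type Hras DMSO cells (0.0026) and the GW0742 by Hras difference of Lpl (-0.022), both near 0; it moved group means by at most 0.031. Without the null Hras GW0742 group no call changed in the comparisons that could be run. With the replicate block, the Angptl6 call for Hras in wild-type DMSO cells (0.20) was lost (adjusted p = 0.0516), and no other. The replicate numbers showed no pairing common to all groups. Over 84 same-numbered pairs, r lay between -0.287 and 0.253 (median 0.015), with 12 over 0.1. Arrays with different numbers were not compared, so pairing within some groups could not be told from these values. Each gene had 1 probe set, so averaging several was not run. The cause of these changes was not tested.

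Leaving out 1 array at a time changed calls or signs in these ranges. GW0742 in wild-type mock cells: Gpihbp1 -0.025 to 0.11. GW0742 in null mock cells: Angptl4 -0.042 to 0.084, Angptl6 -0.065 to 0.039, Lpl -0.11 to 0.042 and Lipg -0.076 to 0.0011. GW0742 in null Hras cells: Angptl4 -0.53 to -0.26, Lpl -0.20 to 0.0041 and Gpihbp1 -0.079 to 0.29. Hras in wild-type DMSO cells: Angptl6 0.13 to 0.29 and Gpihbp1 -0.056 to 0.094. Hras in null DMSO cells: Gpihbp1 -0.0053 to 0.11. Hras in wild-type GW0742 cells: Angptl6 -0.088 to 0.037. Hras in null GW0742 cells: Gpihbp1 -0.23 to 0.14. Null against wild-type: Lpl -0.51 to -0.36 and Gpihbp1 -0.087 to 0.022 in mock DMSO, Gpihbp1 -0.071 to 0.079 in Hras DMSO, and Lpl 0.23 to 0.39 and Gpihbp1 0.058 to 0.43 in Hras GW0742 cells. GW0742 by genotype: Lipg -0.41 to -0.34 in mock and Angptl6 -0.043 to 0.11 in Hras cells. Hras by genotype: Lipg -0.044 to 0.021 and Gpihbp1 -0.044 to 0.11. GW0742 by Hras: Lpl -0.10 to 0.082.

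Counts over all genes moved by more than 1.5 times with only the compared arrays: 775 against 1219 for GW0742 in wild-type Hras cells, 0 against 1001 in null Hras cells, 1686 against 4201 for null against wild-type Hras GW0742, 291 against 169 for GW0742 by genotype in mock cells (260 with trend and robust moderation) and 103 against 344 in Hras cells. Leaving out 1 array gave 288 to 401 against 570 for GW0742 in wild-type mock cells, 393 to 2539 in null Hras cells, 240 to 651 for GW0742 by genotype in Hras cells and 286 to 482 against 492 for GW0742 by Hras. In null mock cells the count was 0, and 0 to 2 without 1 array, 1 after centring.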
